A study of Mus musculus with 2 samples.

Results

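The genes described here encode the interleukin-6 (IL-6) family of cytokines, their receptors and the STAT3 arm of their signalling. The members were taken by gene name, as the non-control probes of the array files named Il6, Il11, Osm, Lif, Il6ra, Il6st, Osmr, Lifr, Stat3 or Socs3. All 10 genes were found, through 21 probes, among 37321 gene names on the array. RNA came from skin tumours that long-term ultraviolet B (UVB) light had raised on the backs of male mice, 1 sample from P2ry6+/+ (wild-type) mice and 1 from P2ry6-/- mice, in which the UDP receptor gene P2ry6 is disrupted. The mice were 2 months old at the start and received 180 mJ/cm2 UVB for 10 weeks, then doses raised by 10 mJ/cm2 a week to 300 mJ/cm2 at week 22, kept until week 40. Both groups shared this UVB course. The strain background, the part of P2ry6 that was deleted, and whether a sample pooled tumours or mice are not stated in the labels. RNA from each group was read on 1 single-colour Agilent array, so no test between genotypes was possible, no p-value is given, and differences are described by size.

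Cytokines of this family share the signal-transducing chain gp130, encoded by Il6st. IL-6 and IL-11 bind their own alpha receptors and then a pair of gp130 chains, whereas LIF and oncostatin M pair gp130 with the LIF receptor or the oncostatin M receptor. The receptors activate Janus kinases, which phosphorylate STAT3, and STAT3 switches on Socs3, whose product shuts the receptor down again. In skin this pathway is known for wound repair, for epidermal thickening after UVB and for a part in skin carcinogenesis.

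On these arrays the family did not move as 1 block. Il6 and the IL-6 receptor gene Il6ra were lower in the knockout-labelled sample, by 4.63-fold and 2.53-fold, and Osm was 2.63-fold higher. Stat3 differed by 1.04-fold, and Socs3 was 1.74-fold lower. Of the 9 measured members, 2 were at least 2-fold lower (22.2%), 1 was at least 2-fold higher (11.1%) and 6 were neither. Over all 19873 measured genes, 5.04% were at least 2-fold lower and 4.82% at least 2-fold higher. That split depends on the scale: 957 genes were higher and 1002 lower here, against 760 and 1228 on a median scale, 368 and 578 after normexp correction and 320 and 3123 on the spike-in scale. The members' median difference was −0.15 (log2, knockout-labelled minus wild-type-labelled) against −0.06 over all measured genes, and 6 of the 9 lay below 0, or 66.7% against 54.9%. With so few members, neither the counts nor the median sets the family apart from the other genes.

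A level here is the log2 processed signal of a probe minus the 75th percentile of its array, and a difference is the level in the knockout-labelled sample minus that in the wild-type-labelled sample. A probe counted as measured where the scanner software marked it well above background on both arrays, and a gene's value is the mean over its measured probes. Where only 1 array was well above background, an "at least" fold sets the bright level against a floor. The floor is the lowest signal well above background on the other array. It is not a strict detection limit, since probes just above it could also fail. Such folds leave out the scanner error and are nominal. The only errors that could be measured were technical. Signals are given with the scanner software's own error estimate. The difference of a single spot had an SD of 0.12 (log2, 293 probes with replicate spots), and different probes of 1 gene had an SD of 0.38 (6731 genes). The pair of arrays shared a slide and a scan day, with 57.8% of spots well above background in the wild-type-labelled sample and 57.9% on the other. P2ry6 itself was higher on the array labelled as its knockout, with a difference of 1.29 ± 0.01 (SD, n = 2 probes), so every direction below rests on the labels alone. The plot of probe levels shows all 21 probes.

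**Figure D1:**
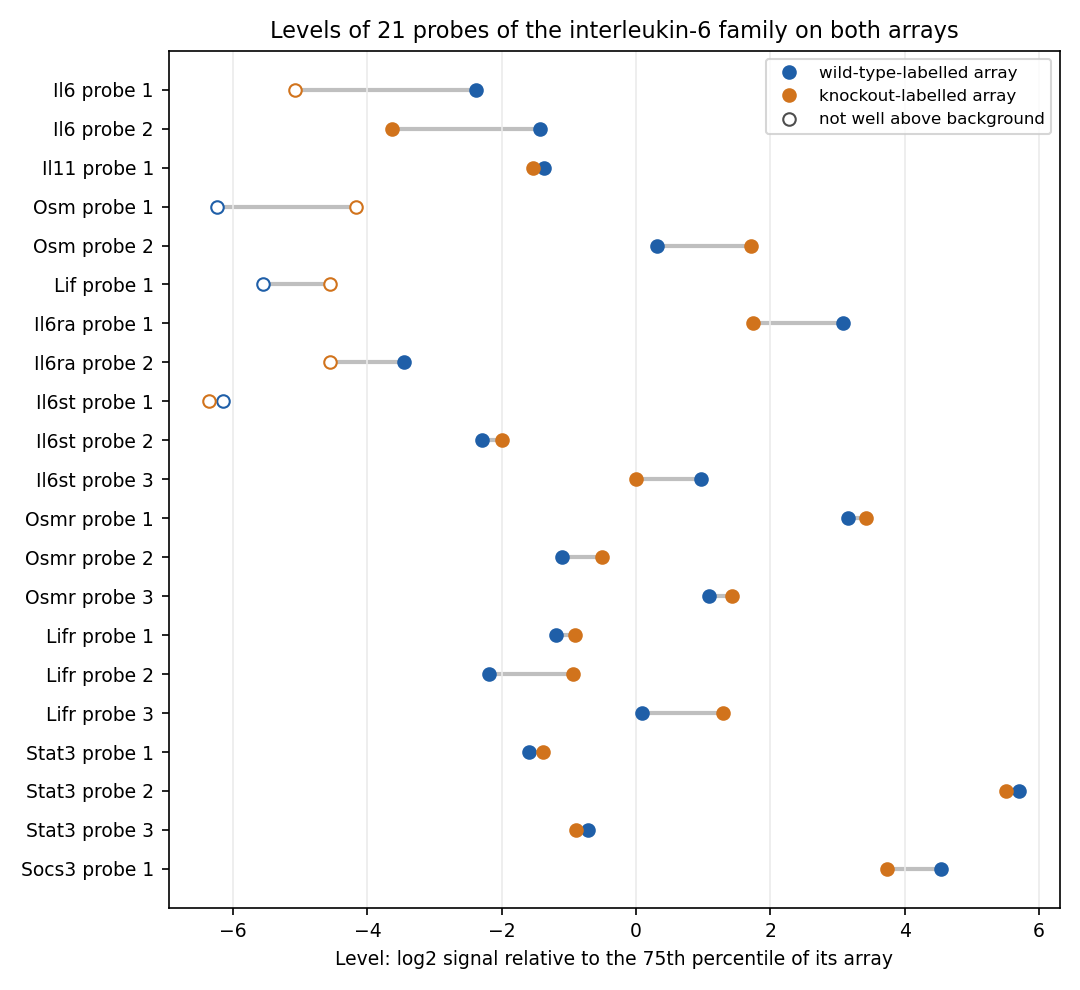
Level of each of the 21 probes of the 10 genes on the wild-type-labelled (blue) and knockout-labelled (orange) arrays, as log2 signal relative to the 75th percentile of that array. Open circles are probes not well above background. Both Il6 and both Il6ra probes sit lower in the knockout-labelled sample, the measured Osm probe sits higher, and the measured Il6st probes go opposite ways.

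For 3 of the ligand genes and for Socs3, the promoter stretches that hold matches to motifs of known regulators are shown here, because AP-1, NF-kB, C/EBP and STAT proteins are the textbook activators of these genes. Sequences are RefSeq's on the assembly GRCm38.p6, given 5′ to 3′ on the gene's own strand, with the 250 bases before each gene's start searched. The table held promoters of 9 of the 10 genes, all but Osm. The motifs searched on both strands were TGANTCA (AP-1), GGGANTTTC (NF-kB), TTGNGCAA (C/EBP), TGACGTCA (a cyclic AMP response element) and TTCNNNGAA (STAT). Capitals mark matches.
Il6, chr5:30012864-30013113, plus strand: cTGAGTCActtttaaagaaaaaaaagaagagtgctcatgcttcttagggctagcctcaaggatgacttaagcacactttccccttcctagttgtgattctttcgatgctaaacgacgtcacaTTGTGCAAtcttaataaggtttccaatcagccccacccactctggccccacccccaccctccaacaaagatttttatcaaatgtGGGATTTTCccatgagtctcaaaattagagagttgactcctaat
Il11, chr7:4778203-4778269, minus strand: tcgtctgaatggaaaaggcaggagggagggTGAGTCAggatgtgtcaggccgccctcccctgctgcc
Lif, chr11:4257318-4257376, plus strand: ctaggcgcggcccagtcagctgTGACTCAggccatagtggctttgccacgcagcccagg
Socs3, chr11:117969482-117969550, minus strand: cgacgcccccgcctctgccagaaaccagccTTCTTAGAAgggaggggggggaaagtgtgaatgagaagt

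The Il6 window held an AP-1 match that begins 249 bases before the start, a C/EBP match at 128 and an NF-kB match at 44. Il11 and Lif held the AP-1 motif too, at 98 and 228 bases before the start, and Socs3 a STAT match at 154. Of 32851 promoter windows of the same length, 6.75% held the AP-1 motif, 2.61% the C/EBP motif, 0.941% the NF-kB motif, 1.55% the cyclic AMP response element and 7.02% the STAT motif. The windows of Il6ra, Il6st, Osmr, Lifr and Stat3 held no match to these letters, nor did another Il11 window. A match is a run of letters and not a shown binding site.

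Among the ligands, Il6, the acute inflammatory cytokine made by keratinocytes, fibroblasts and myeloid cells, was lower in the knockout-labelled sample by both of its probes. The probe at chromosome 5, 30346367 to 30346426 (mm9), read 129 ± 13.4 signal units in the wild-type-labelled sample and 26.3 ± 4.44 in the knockout-labelled sample. Its difference was −2.21 ± 0.29 (log2, scanner error), which placed Il6 among the lowest 0.624% of measured genes. The other probe, at 30346159 to 30346218, read 66.3 ± 8.07 and 9.70 ± 4.50, the second value not well above background. Against the floor of the knockout-labelled array its level was nominally at least 3.60-fold lower, with the scanner error left out. Il6 was dim in the knockout-labelled sample, where the lowest signal well above background was 17.4 units, so its fold is imprecise. Under normexp background correction, which adds a fixed offset to all signals, the difference was −1.11.

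Osm, which encodes oncostatin M, a product mainly of macrophages, neutrophils and T cells, went the other way. The probe at chromosome 11, 4140873 to 4140932 (mm9), read 431 ± 43.3 units in the wild-type-labelled sample against 1067 ± 107 in the knockout-labelled sample. The difference of 1.39 ± 0.20 (log2, scanner error) was exceeded by 1.93% of measured genes. It fell under 2-fold, to 0.93, when differences were set relative to the spike-in controls, a scale that lowers every gene by 0.46. A second Osm probe, at 4139500 to 4139559, was not well above background on either array (4.62 ± 4.06 and 18.1 ± 4.27 units) and gave no level.

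Il11, a cytokine of stroma and damaged epithelium, differed little. Its probe at chromosome 7, 4724847 to 4724906 (mm9), read 134 ± 14.0 and 113 ± 12.0 units, a difference of −0.15 ± 0.21 (log2, scanner error), within the scanner error. Lif, the leukaemia inhibitory factor gene, was not well above background on either array through its single probe (7.36 ± 3.57 and 13.9 ± 3.77 units), so the arrays give it no level. Of the 4 ligand genes, then, 1 was lower, 1 was higher, 1 differed by less than its scanner error and 1 was not measured.

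Other ligands of the gp130 family gave a similar mixture. Of 8 named, 6 were measured, and their median difference was −0.17. Clcf1, which encodes a cardiotrophin-like cytokine, differed by −0.94, just under 2-fold. The cardiotrophin gene Ctf1 differed by 0.73, Ebi3, a subunit of interleukin-27, by −0.21, its partner Il27 by 0.05 and the ciliary neurotrophic factor gene Cntf by −0.13. Ctf2 and the itch cytokine gene Il31 were not well above background on either array.

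Among the receptor chains, the alpha receptor Il6ra, which binds IL-6 and confers its cell specificity, had the greatest difference. The probe at chromosome 3, 89674054 to 89674113 (mm9), read 2931 ± 293 units in the wild-type-labelled sample against 1094 ± 109 in the knockout-labelled sample. The difference was −1.34 ± 0.20 (log2, scanner error), with 2.38% of measured genes at or below it. Il6ra kept a difference of at least 2-fold under all 9 processing alternatives, from −1.80 to −1.17. Its second probe, at 89680743 to 89680802, read 31.6 ± 5.58 units in the wild-type-labelled sample and 13.9 ± 4.43, not well above background, on the other. Its level was nominally at least 1.72-fold lower, with the scanner error left out.

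The shared chain Il6st gave no single answer. The probe at chromosome 13, 113296586 to 113296645 (mm9), read 675 ± 67.6 units in the wild-type-labelled sample against 326 ± 32.8 in the knockout-labelled sample, a difference of −0.96. The probe at 113294595 to 113294654 read 70.5 ± 8.05 and 81.7 ± 9.0, a difference of 0.30. Their mean was −0.33 ± 0.89 (SD, n = 2 probes), a spread greater than the 0.38 seen between probes of 1 gene in general. One more probe, at 113273739 to 113273798, was not well above background on either array. Which transcripts each probe reports was not tested.

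The dimmer Il6ra probe and the Il6st probe with the opposite sign are printed as the array files give them, since they limit what can be said of these genes.
Il6ra second probe: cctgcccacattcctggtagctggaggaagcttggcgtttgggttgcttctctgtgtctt
Il6st probe with the positive difference: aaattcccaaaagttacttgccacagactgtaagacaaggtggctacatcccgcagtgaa

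The 2 sequences have GC contents of 55% and 45%. Each is 60 bases long, as are all probes of the members, and no exon annotation of mm9 was used here to place them within transcripts.

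Lifr and Osmr, the chains that pair with gp130 for LIF and oncostatin M, both read higher in the knockout-labelled sample through all of their probes. The Lifr probe at chromosome 15, 7147319 to 7147378 (mm9), read 368 ± 37.0 and 802 ± 80.3 units (difference 1.21), and that at 7141681 to 7141740 read 76.2 ± 8.64 and 170 ± 17.5 (1.24). The probe at 7135072 to 7135131 read 151 ± 15.5 and 174 ± 17.7, a difference of 0.28. The gene's mean was 0.91 ± 0.54 (SD, n = 3 probes), just under 2-fold, and 5.93% of measured genes lay above it. With the brightest probe alone it was 1.21.

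The 3 Osmr probes differed by 0.26, 0.35 and 0.60, with a mean of 0.40 ± 0.17 (SD, n = 3 probes), or 1.32-fold higher. The brightest of them, at chromosome 15, 6763686 to 6763745 (mm9), read 3095 ± 310 units in the wild-type-labelled sample against 3504 ± 350 in the knockout-labelled sample. On the spike-in scale the mean was −0.06, so the direction for Osmr depends on the scale. Osm, Osmr and Lifr read higher in the knockout-labelled sample on the main scale, while the measured probes of the shared chain Il6st went opposite ways (−0.96 and 0.30). Osm alone of these passed 2-fold as a gene mean.

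Of 7 other receptor chains, 6 were on the array and 4 were measured. Of these 1 was higher by 2-fold or more (25%, against 4.82% of all measured genes) and 3 were neither (median difference 0.12). Cntfr, the alpha receptor for ciliary neurotrophic factor, differed by 1.27 ± 0.08 (SD, n = 2 probes), or 2.40-fold higher. Il11ra1, the IL-11 receptor gene, differed by 0.33, Il27ra by −0.09 and Il12rb2 by −0.29. Il31ra, which pairs with the oncostatin M receptor to sense interleukin-31, was above background in the wild-type-labelled sample alone and at least 1.59-fold lower on the other. Il12rb1 was above background in the knockout-labelled sample alone, at least 1.90-fold higher there. The sheddases Adam17 and Adam10, which can release soluble IL-6 receptor, differed by 0.07 and −0.03, and the convertase gene Furin by −0.12. The protease gene Adamts4 differed by −0.09 ± 0.86 (SD, n = 3 probes), with probes from −0.83 to 0.85.

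**Figure D2:**
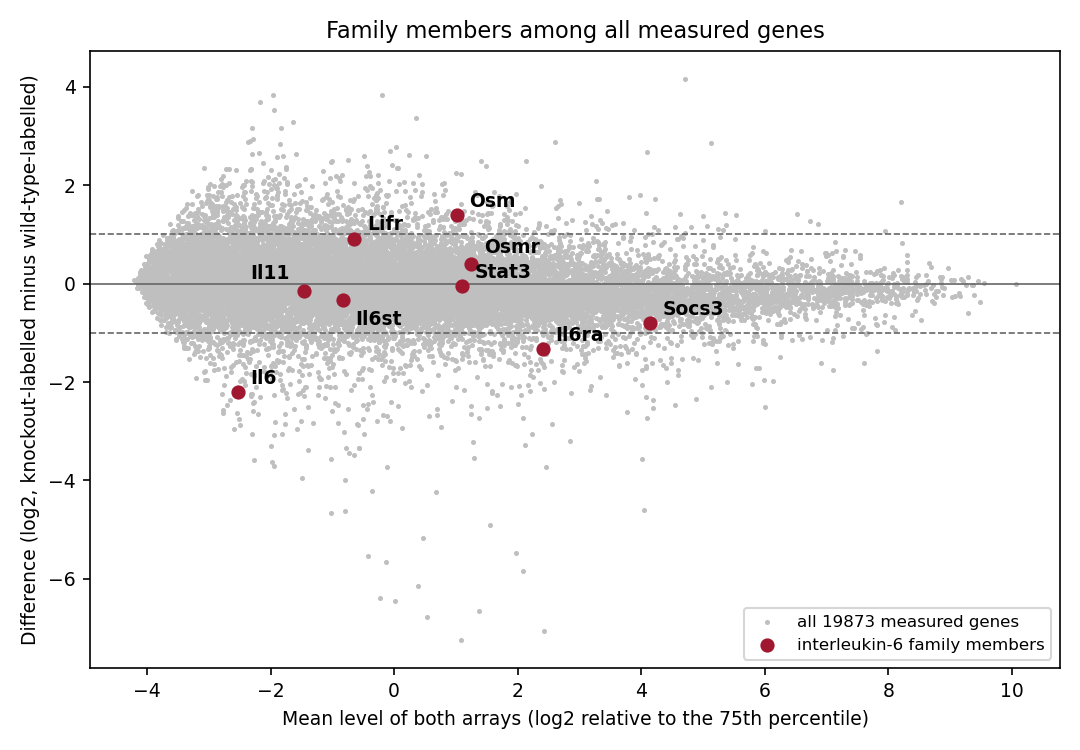
Difference (log2, knockout-labelled minus wild-type-labelled) against the mean level of both arrays (log2 relative to the 75th percentile) for all 19873 measured genes (grey) and the 9 measured members (red). Dashed lines mark 2-fold. Il6 and Il6ra lie below the lower line, Osm lies above the upper line and Stat3 lies at −0.05.

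Downstream of the receptors, Stat3, the transcription factor that carries the signal, was bright and differed little. Its brightest probe, at chromosome 11, 100749598 to 100749657 (mm9), read 18089 ± 1809 units in the wild-type-labelled sample against 14805 ± 1480 in the knockout-labelled sample, a difference of −0.20 ± 0.20 (log2, scanner error). The probe at 100746462 to 100746521 read 115 ± 12.0 and 125 ± 13.0, and that at 100759946 to 100760005 read 210 ± 21.4 and 176 ± 18.1. The gene's mean of −0.05 ± 0.23 (SD, n = 3 probes) was smaller than the spread between its own probes, and it turned to 0.02 under quantile normalization and the authors' deposited values. These are transcript levels: STAT3 works through its phosphorylated protein, which arrays do not measure.

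Socs3, the feedback inhibitor, was lower by less than 2-fold. Its probe at chromosome 11, 117827480 to 117827539 (mm9), read 8044 ± 804 units in the wild-type-labelled sample against 4359 ± 436 in the knockout-labelled sample. The difference of −0.80 ± 0.20 (log2, scanner error) lay beyond the technical error, with 8.01% of measured genes at or below it. It ranged from −1.26 on the spike-in scale to −0.56 under quantile normalization, and passed 2-fold in 1 of 9 alternatives.

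**Figure D3:**
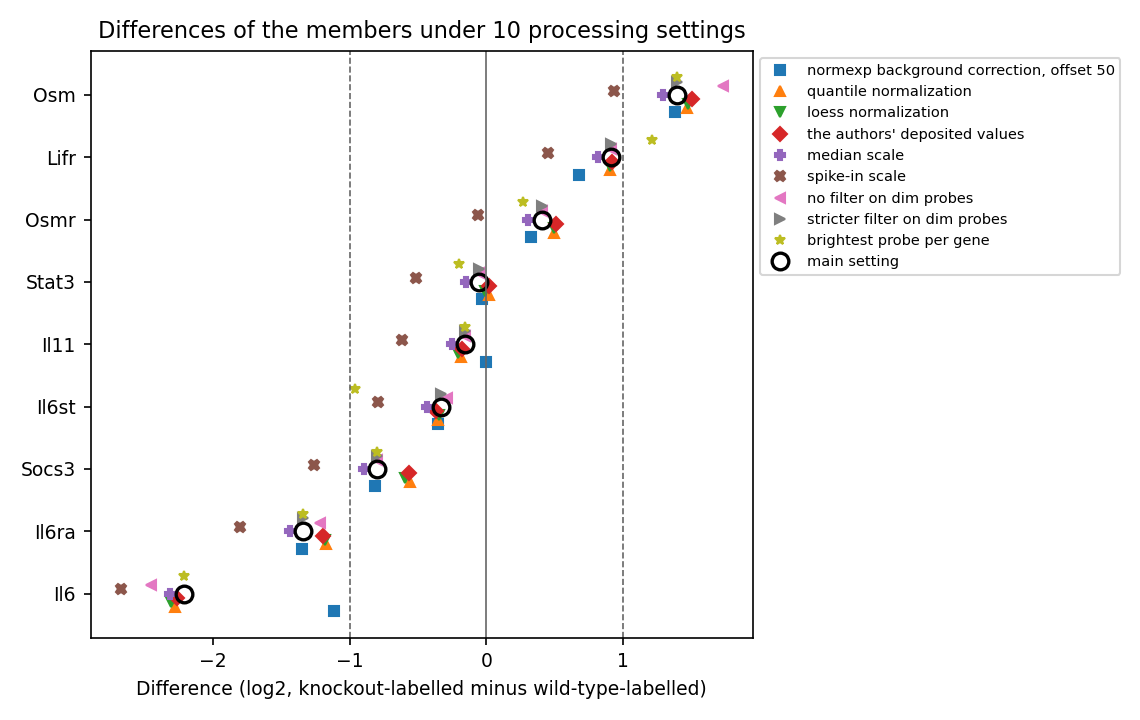
Difference of each measured member (log2, knockout-labelled minus wild-type-labelled) under the main setting (open circles) and 9 alternatives (coloured markers), with 2-fold as dashed lines. Il6ra stays beyond 2-fold lower in all of them, Il6 in the 8 that give it a value, and Osm beyond 2-fold higher in 8 of 9, while Stat3 and Osmr change sign in some.

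The other Janus kinases and STATs stayed within 2-fold. None of the 10, all of them measured, reached 2-fold in either direction (median 0.09), against 4.82% of all measured genes higher and 5.04% lower. Jak1, the kinase used most by gp130, differed by −0.51, Jak2 by 0.24 and Tyk2 by 0.23. Jak3, a kinase of lymphoid and myeloid cells, differed by 0.66 ± 0.94 (SD, n = 3 probes), Stat5a by 0.57 ± 0.71 (SD, n = 2 probes) and Stat6 by −0.53.

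Of the negative regulators, none of the 17 measured on both arrays reached 2-fold (median −0.16), against 4.82% of all measured genes higher and 5.04% lower. Outside those 17, Ptprt did so as a bound. Cish and Socs1, which like Socs3 are induced by cytokine signals and restrain them, differed by −0.72 and −0.48, and Socs2 by 0.39 ± 0.37 (SD, n = 2 probes). The phosphatase gene Ptpn1 differed by −0.52. Ptpn6 and Ptprc, phosphatase genes of blood cells, differed by 0.44 ± 0.53 (SD, n = 3 probes) and 0.64 ± 0.65 (SD, n = 4 probes). Ptprt was above background in the knockout-labelled sample alone, at least 2.17-fold higher there.

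Known STAT3 target genes went both ways. Of 58 named, 47 were measured, of which 6 were at least 2-fold lower (12.8%, against 5.04% of all genes), 3 higher (6.38%, against 4.82%) and 38 neither. The median difference was −0.22, and 28 of the 47 lay below 0. The lower ones were the AP-1 subunit genes Fos (−2.36) and Junb (−1.06), Zfp36 (−1.60), whose product destabilises cytokine mRNAs, the survival kinase gene Pim3 (−1.52), the cornified-envelope transglutaminase gene Tgm1 (−1.28) and Klf4 (−1.19), a factor of differentiating epidermis. The higher ones were the acute-phase serpin gene Serpina3i (1.31), the metalloproteinase inhibitor gene Timp1 (1.28) and Lcn2 (1.10), an iron-siderophore binding protein. A further 4 targets were well above background in the wild-type-labelled sample alone. Twist1 was nominally at least 2.45-fold lower in the other and Muc1 at least 1.40-fold. Il10 read 21.4 and 3.82 units, too near the floor of 17.4 units for a minimum fold. Pim2 was 1.41-fold lower, a ratio to a dim reading and no minimum. Most of these genes also answer to signals other than STAT3, and the list was chosen with earlier results of these data known.

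Within that list, the genes short of 2-fold were not uniform either, and those in this paragraph were picked after their values were seen. Bcl3, Pim1, Saa1, Ccnd1 and the survivin gene Birc5 differed by −0.91, −0.90, −0.91, −0.87 and −0.87, all just short of 2-fold. The acute-phase genes Saa3 and Hp differed by 0.86 and 0.81. Others differed by less, among them Cebpd (−0.58), Cebpb (−0.36), Mcl1 (−0.28) and Lrg1 (0.26). The fibrinogen genes Fga, Fgb and Fgg and A2m, hallmarks of the liver response to IL-6, were not well above background on either array.

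Among genes that induce Il6 or control its mRNA, 26 were measured. Of these 5 were lower by 2-fold or more (19.2%, against 5.04% of all genes), none was higher and 21 were neither. The median was −0.37 against −0.06 over all measured genes, and 18 of 26 lay below 0, or 69.2% against 54.9%, with no test. The list was chosen with earlier results of these data known. It holds inducers beside genes that restrain Il6, such as Zfp36, so its counts and median have no single meaning for Il6. The epithelial alarmin genes Tslp and Il33 differed by −4.24 and −2.64 ± 0.44 (SD, n = 2 probes). Ptgs2 and Ptges, which make prostaglandin E2, an inducer of Il6, differed by −1.30 and −1.20 ± 0.51 (SD, n = 3 probes), beside Zfp36. Il1b went the other way at 0.99 ± 0.59 (SD, n = 3 probes), just under 2-fold. Tnf differed by 0.35 and the NF-kB subunit genes Nfkb1 and Rela by −0.34 and −0.04.

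**Figure D4:**
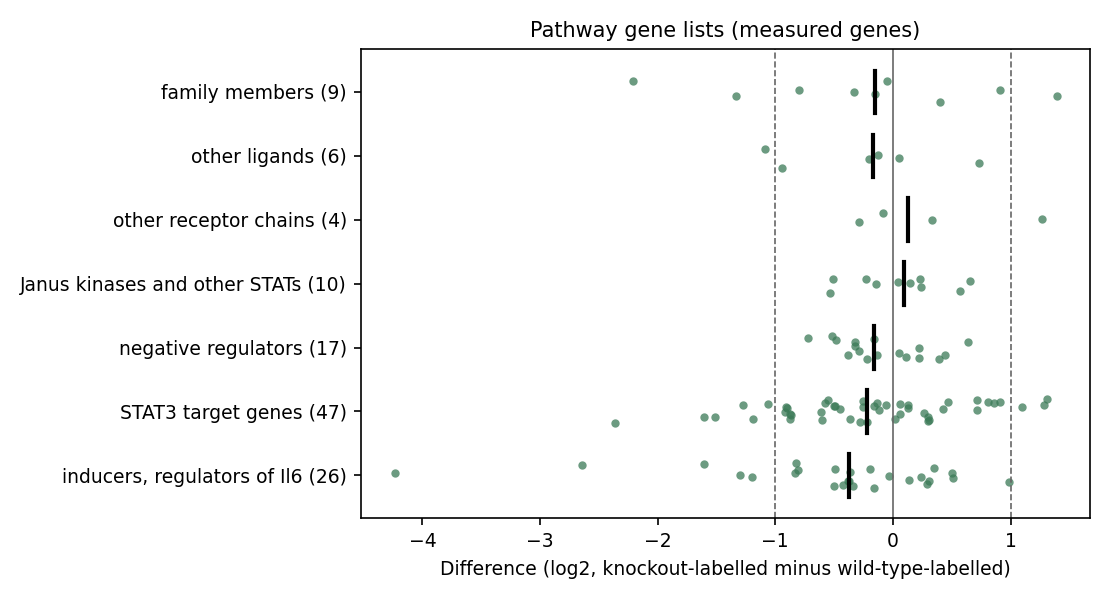
Difference of each measured gene (points; log2, knockout-labelled minus wild-type-labelled) in 7 pathway lists, with the number measured in brackets, the list median as a black bar and 2-fold as dashed lines. The list medians run from −0.37 for inducers and regulators of Il6 to 0.12 for other receptor chains, and single genes spread to both sides.

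Marker lists of several cell types also differed between the arrays, and others differed little. In bulk tumour RNA, fewer cells of a type and less RNA per cell cannot be told apart. All 15 macrophage and monocyte markers were measured. Of them 8 were at least 2-fold higher in the knockout-labelled sample (53.3%, against 4.82% of all measured genes). Another 1 was lower (6.67%, against 5.04%) and 6 were neither, with a median of 1.10. Their summed level, in multiples of the 75th percentile, was 27.6 in the wild-type-labelled sample against 54.7 in the knockout-labelled sample. Cx3cr1 differed by 2.78, Aif1 by 1.79 and Fcgr1 by 1.71. These macrophage values stand in the same direction as Osm, and their part in its difference was not tested. Of 10 measured neutrophil markers, 2 were higher (20%, against 4.82%), 0 lower and 8 neither (median 0.13), led by Retnlg (1.50), Fpr2 (1.38) and S100a8 (−0.90). Their summed level was 862 and 653. It came mostly from S100a8, S100a9 and Csf3r, with log2 levels of 7.87, 8.94 and 7.10 in the wild-type-labelled sample, so it says little of the other markers. Fpr1, a formyl peptide receptor gene, was well above background in the knockout-labelled sample alone. It read 111 units there against 18.4, a 6.41-fold ratio after scaling that rests on a dim reading and is no minimum.

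Keratinocyte lists differed by layer. For their counts and those of the sebaceous list, the shares over all measured genes were 4.82% at least 2-fold higher and 5.04% lower. All 8 basal markers were measured, with 1 at least 2-fold higher and 7 neither (median 0.18, summed level 1003 and 1371). Krt5 differed by 1.66, Dst by 0.54 and Trp63 by 0.48. Of 9 measured suprabasal markers 5 were lower, 0 higher and 4 neither (median −1.37, summed level 2456 and 1587), led by Tgm3 (−2.17 ± 2.17, SD, n = 2 probes), Casp14 (−1.85) and Dsg1a (−1.66). Sebaceous gland and adipocyte markers were lower by more: of 7 measured 5 were lower, 0 higher and 2 neither (median −2.86, summed level 160 and 26.1), led by Fa2h (−7.06), Awat1 (−6.77) and Elovl3 (−6.65). The adipocyte-defining Adipoq and Plin1 were not well above background on either array. Il6, Il6ra and Socs3 were lower beside these lists, whose part in those differences was not tested.

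Other cells that make or answer IL-6 cytokines were as follows, beside 4.82% of all measured genes at least 2-fold higher and 5.04% lower. Of 7 measured mast cell markers 4 were lower, 1 higher and 2 neither (median −1.07, summed level 13.2 and 7.16), with Mcpt4 at −2.53, Cma1 at −2.47 and Cpa3 at −2.22. Of 10 T and NK cell markers 3 were lower, 0 higher and 7 neither (median −0.40, summed level 4.79 and 3.36), led by Gzmb (−2.62), Gzma (−1.50) and Cd2 (−1.29). The 4 measured B and plasma cell markers had a median of −0.69 (summed level 0.886 and 1.32), with Jchain at 1.89 and Pou2af1 at −1.72. Of 7 measured dendritic and Langerhans cell markers 3 were higher, 1 lower and 3 neither (median 0.79, summed level 20.2 and 36.6), with Cd207 at −1.66, H2-Aa at 1.27 and Itgax at 1.21.

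Fibroblast markers had a median of 0.18 with 1 of 11 higher (9.09%, against 4.82% of all measured genes), 0 lower and 10 neither. Their summed level was 90.2 and 92.0, and Dpt (1.32), Postn (−0.77) and Pdgfra (0.58) led. Endothelial markers had a median of 0.12 with 9 of 9 neither (summed level 7.93 and 10.7), led by Emcn (0.68), Vwf (0.67) and Kdr (0.57). Of 5 measured skeletal muscle markers 1 was higher (20%, against 4.82%) and 4 neither (median 0.36, summed level 4.73 and 5.41), with Acta1 at 3.84, Mylpf at 0.44 and Tnnt3 at 0.36. The part of any of these cell types in the members' differences was not tested.

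**Figure D5:**
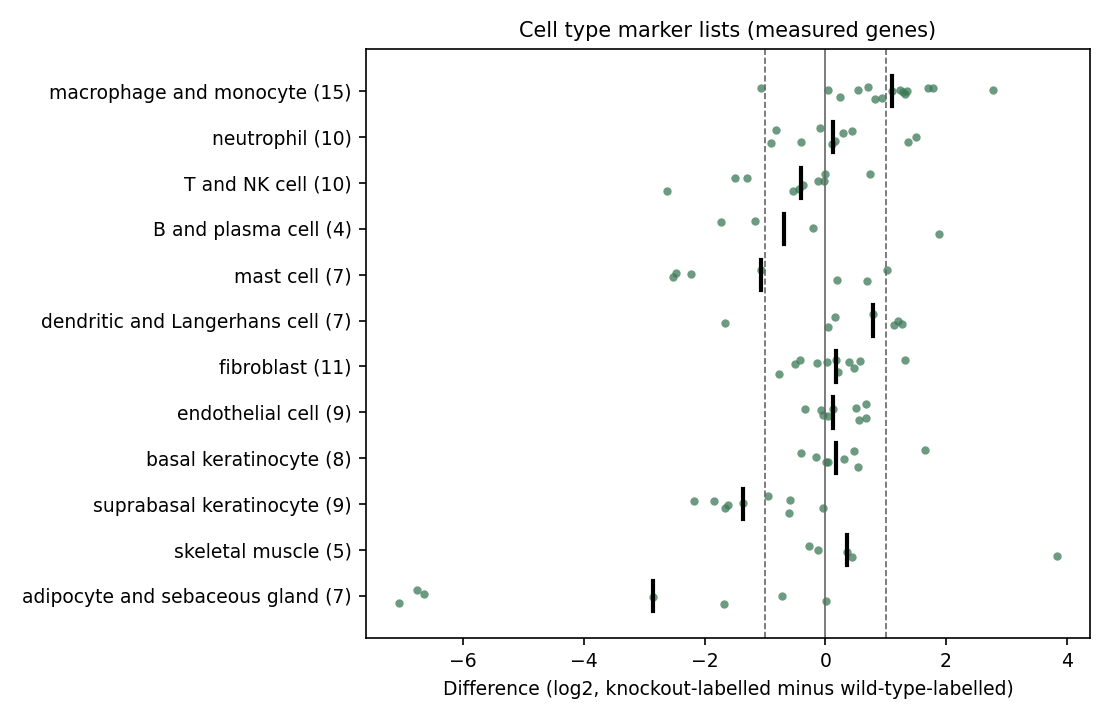
Difference of each measured marker (points; log2, knockout-labelled minus wild-type-labelled) in 12 cell type lists, with the number measured in brackets, the list median as a black bar and 2-fold as dashed lines. Macrophage and monocyte markers have a median of 1.10, suprabasal keratinocyte markers −1.37 and adipocyte and sebaceous gland markers −2.86.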

How the data were processed

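Skin tumour RNA from 1 wild-type-labelled and 1 knockout-labelled (P2ry6-/-) sample was measured. Per the file headers and the submitters' processing notes, the authors obtained each spot's intensity, background-subtracted and detrended, from Agilent Feature Extraction 10.7.1.1, with no normalization between arrays. The authors also deposited log2 values for both arrays, whose columns share 1 distribution; no label names the method. Of 62976 spots, 59305 were non-control. Outlier spots by the scanner's marks were dropped (102 and 105), no spot was saturated, and the spots of a probe were averaged. Signals were scaled to the 75th percentile on the log2 scale, and at least 2-fold (1 log2 unit) was called. A gene above background on 1 array has a nominal bound, its bright level against a floor or, if higher, its dim level. The floor is the lowest signal well above background on the dim side. It is not a strict detection limit, and bounds leave out the scanner error. Where the dim level was used, for Fpr1 and Pim2, the value is a ratio and not even a nominal minimum. Probes were named through RefSeq accessions (31453 kept, 1535 updated, 23606 unmatched). The number of arrays limits the precision.

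The members and lists were chosen with earlier results of these data known. The rule for named genes took every member, P2ry6, all other ligands and receptor chains, up to 6 genes of each other pathway list and up to 3 of each cell type list by size of difference; genes beyond it were named after their values were seen, and a few that it takes are not reported here. The 9 alternatives used Python 3.11.15 and R 4.3.3 with limma 3.58.1: normexp (offset 50), quantile and loess normalization, the deposited values, median and spike-in scales (8 probes), no filter and a stricter filter on dim probes, and the brightest probe per gene. The scripts were tested on simulated data. Because 1 array a group leaves no replicates, a value counted as moved where it shifted by more than the SD between probes of a gene.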

Additional observations from a re-analysis of the deposited data

How the results depend on the processing

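The direction of no member called at least 2-fold apart reversed under the 9 alternatives. The count of members at least 2-fold lower was 2, but 1 under the stricter filter on dim probes, which removed Il6, and 3 on the spike-in scale, through Socs3. The count at least 2-fold higher was 1, but 0 on the spike-in scale and 2 both without a filter, through Lif, and with the brightest probe per gene, through Lifr. The spike-in scale, which shifts every gene by −0.46, moved the members' median to −0.61 and the list medians to −0.63 (other ligands), −0.34 (other receptor chains), −0.37 (Janus kinases and STATs), −0.62 (negative regulators), −0.68 (STAT3 targets), −0.83 (inducers and regulators of Il6) and −0.57 (shedding); on that scale 320 genes were at least 2-fold higher and 3123 lower, against 957 and 1002. With the brightest probe per gene the shedding list's median was −0.57, through Il6st. Normexp correction, which compresses dim signals, left 368 genes higher and 578 lower, and with no filter 2244 and 2135 of 37321 were. The other 77 of these values, that count of 3 among them, stayed within the spread between probes or within 1.5 times the count. Of 80 member values under the alternatives, 69 stayed within that spread and 11 moved. No paired analysis was possible because each group holds 1 array, and no array can be left out or blocked by slide.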

Other observations

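Other cytokine systems that signal through STAT3 were examined in a list added after the main results were seen. Of 19 genes, 12 were measured on both arrays. Of these 1 was lower by 2-fold or more (8.33%, against 5.04% of all measured genes) and 11 were neither (median 0.09). Among them are cytokines of the interleukin-20 group, which act on keratinocytes. Il19 differed by −1.75 ± 0.03 (SD, n = 2 probes), or 3.37-fold lower in the knockout-labelled sample. Il20 read 132 units in the wild-type-labelled sample and 14.3, not well above background, in the other, at least 7.14-fold lower. Il20ra, which encodes a receptor chain for these cytokines, read 241 and 5.04 units and was at least 13.1-fold lower. Il24 and the partner chain gene Il20rb differed by −0.30 and −0.53, each within 2-fold. The receptor chain gene Il22ra1 differed by −0.31 ± 0.76 (SD, n = 2 probes), its probes going opposite ways (−0.85 and 0.23). Il22ra2, a soluble decoy receptor for interleukin-22, was at least 2.50-fold lower.

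Other genes of the list went both ways. Il10ra, a receptor chain of leukocytes, differed by 0.95, Csf3, the neutrophil growth factor gene, by 0.87 and Il23a by 0.79. The receptor gene Csf3r differed by 0.16, Lepr by 0.17 and Il10rb by −0.02. Il10 was well above background in the wild-type-labelled sample alone, at 21.4 units against 3.82. Its bound of 1.16-fold lower rests on a reading close to the floor of 17.4 units and sets no minimum. Il22 and Il23r were not well above background on either array. These genes were picked after their values were seen, and none was tested.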
